A study of Rattus norvegicus with 90 samples.

Results

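The data describe the step from a low dose (0.125 mM) to a high dose (0.5 mM) of thioacetamide-S-oxide in cultured rat renal cells, read 24 h after the agent was added. The libraries were chosen by cell type, duration and dose as labelled, with no measured value used, and they were 10 of the 90 libraries of the series, namely 5 at the high dose (MS-146 to MS-150) and 5 at the low dose (MS-141 to MS-145). All were poly-A-enriched RNA-seq libraries of renal tube epithelial cells of Sprague-Dawley rats. These cells were bought frozen from a vendor as proximal tubular epithelial cells, plated and cultured before exposure, and no genetic change was named for any group. Nothing in the sources says that the 5 cultures of a group came from separate animals, so p-values measure the spread between these cultures, which may be technical. The 5 vehicle libraries of the same cells at 24 h (culture medium alone), the 10 renal libraries of the same 2 doses at 9 h, and the 10 hepatocyte libraries at 24 h, whose low and high doses were 0.025 mM and 0.125 mM, served as comparisons. Levels are also given for the vehicle libraries of renal cells at 9 h. The same was done for hepatocytes under vehicle at 9 h and 24 h and at their low and high doses at 9 h. Levels in cardiomyocytes of the same strain are given under vehicle, a low dose of 0.5 mM (equal to the high dose of the renal cells) and a high dose of 1.5 mM, at 9 h and 24 h.

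Thioacetamide is a model hepatotoxicant that has to be oxidised before it injures cells. Its first oxidation product, thioacetamide-S-oxide, is oxidised again to a reactive species that binds proteins and lipids, so cultures given the S-oxide meet the metabolite directly. Proximal tubular cells line the first segment of the renal tubule, where they take back filtered solutes and handle many foreign compounds, and they are a common site of toxicant injury in the kidney. The comparison asks how far the transcript profile of these cells moved between a low and a high dose of the metabolite.

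The deposited values were given per Ensembl transcript. Of the 40071 transcripts, 0 could be matched to a gene symbol with the table at hand, so the transcripts are described by number, size and level, and the 4 named ones by their identifier. For the same reason the labelled cell type could not be set against its marker genes.

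Each library held between 15078809 and 39153378 estimated counts, and 92.2% to 95.3% of them were assigned to Ensembl transcripts. The library MS-145 of the low-dose group stood apart. It had the lowest total of the 10 (15078809, against 30860544 to 32441592 in the other 4 low-dose libraries), and 19227 transcripts reached at least 1 estimated count in it, against 21892 to 22816. In MS-145 the 10 most abundant transcripts, 204 to 1545 bases long, held 50.0% of all transcript TPM (a level per transcript length, scaled to the same sum in every library). The same 10 transcripts held 18.1% in MS-144, 8.36% to 9.81% in MS-141 to MS-143, 4.996% to 12.7% in the high-dose libraries and 8.34% to 14.5% in the vehicle libraries. Spearman's rho over 17941 transcripts was 0.875 to 0.923 between MS-145 and the other low-dose libraries and 0.968 to 0.993 among those 4. MS-145 was kept, as its label gives no reason to drop it, and the main counts and the values that moved most are also given without it. The transcripts called with all 10 libraries are those meant below unless said otherwise.

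The library measures overlapped between the groups. Total counts averaged 30755641 ± 6477053 (SD, n = 5) at the high dose and 28151343 ± 7333698 (SD, n = 5) at the low dose (exact permutation test, two-sided, p = 0.595, where the smallest p possible was 0.00794). Transcripts detected numbered 23056 ± 558 (SD, n = 5) and 21836 ± 1501 (SD, n = 5), with p = 0.103 in the exact permutation test and p = 0.206 without MS-145. The difference in means was 1220 with MS-145 and 568 without it. The share of TPM in the 100 most abundant transcripts was 33.7% ± 2.39 (SD, n = 5) in the high-dose group and 42.9% ± 15.4 (SD, n = 5) in the low-dose group, with an exact permutation p of 0.175 and of 0.349 without MS-145.

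At 24 h, about 1 in 5 of the transcripts tested were called different between the doses at the fold threshold used, and more of them fell than rose. Of 17941 transcripts tested, 3532 (19.7%) were differentially expressed transcripts (DEGs, with a Benjamini-Hochberg adjusted p of at most 0.05 in edgeR's quasi-likelihood test and a fold change of at least 1.5). Of these, 1504 were higher (8.38% of those tested) and 2028 were lower (11.3%) at the high dose. The median log2 fold change over all transcripts tested was -0.01, a value that the TMM scaling largely fixes. Without MS-145, 4234 of 18242 transcripts were called (23.2%), with 1937 higher (10.6%) and 2297 lower (12.6%). With no fold threshold, 5294 of 17941 were called with all libraries and 8231 of 18242 without MS-145. Of the 5-against-5 calls, 1374 of the 1504 higher (91.4%) and 1831 of the 2028 lower transcripts (90.3%) were also called without this library. The spread between cultures bears on these numbers. The median SD of log2 CPM (CPM, estimated counts relative to the TMM-scaled library size) per transcript was 0.34 in the low-dose group, 0.17 in that group without MS-145 and 0.17 in the high-dose group.

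**Figure D1:**
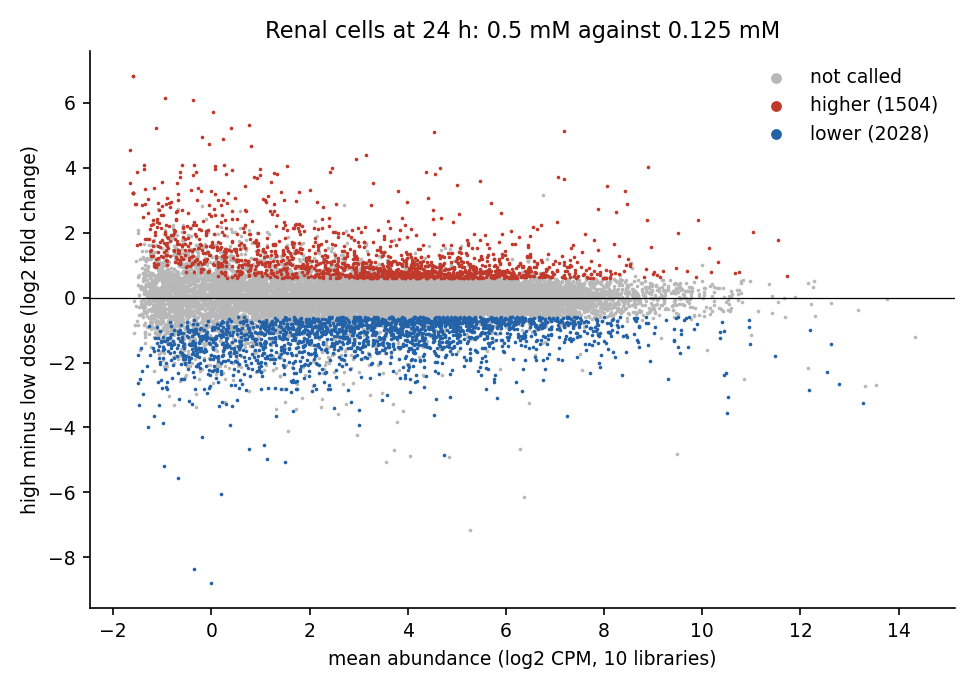
Log2 fold change between the high and the low dose (vertical axis) against mean abundance in log2 CPM (horizontal axis) for each of 17941 transcripts in renal cells at 24 h. Red points are the 1504 transcripts called higher, blue points the 2028 called lower and grey points those not called, and calls of both directions occur among transcripts of low and of high abundance.

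The changes were mostly moderate in size, with a tail of large ones. The median log2 fold change was 1.01 among the transcripts called higher and -1.09 among those called lower, and 0.97 and -1.05 among the calls without MS-145. At least a 2-fold change was reached by 757 of the 1504 higher (50.3%) and 1149 of the 2028 lower transcripts (56.7%). At least a 4-fold change was reached by 221 and 225, and at least an 8-fold change by 82 and 40. Falls were thus more numerous in all and at 2-fold or more, near equal in number to rises at 4-fold or more, and fewer at 8-fold or more. Among the calls without MS-145, rises and falls numbered 920 and 1236 at 2-fold or more, 260 and 219 at 4-fold or more, and 106 and 40 at 8-fold or more.

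The groups were separated library by library for most of the DEGs. All 5 high-dose values lay above all 5 low-dose values for 2505 of the transcripts tested (14%) and below them for 2390 (13.3%), or 4895 (27.3%) in all. Among the DEGs this held for 1356 of the 1504 higher (90.2%) and 1667 of the 2028 lower transcripts (82.2%). Without MS-145, with 5 libraries against 4, it held for 94.4% and 92.8% of the same DEGs, and over all transcripts tested for 3424 above (19.1%) and 3597 below (20%).

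Calls were more frequent among transcripts of low abundance. When the transcripts tested were split into 5 equal classes by mean TPM over the 10 libraries, the share called higher was 11.1% in the lowest class (0.0399 to 1.63 TPM) and 6.22% in the highest (36.2 TPM and above). The share called lower was 14.8% and 9.84% in the same classes. With transcript length the shares ran the other way for both directions. From the shortest class (42 to 1228 bases) to the longest (3782 to 23724 bases), the share called higher was 6.27% and 9.28%, and the share called lower 9.58% and 13.8%. The same order of lowest and highest classes was found without MS-145 for both splits.

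The largest rises started from low levels. Transcripts that rose by 8-fold or more went from a median of 0.107 TPM at the low dose to 2.0 TPM at the high dose. Among those that rose by 1.5- to 2-fold it was 7.38 and 14.6. Transcripts that fell by 8-fold or more went from a median of 3.35 TPM to 0.306. Without MS-145, the calls of 8-fold or more went from 0.0718 to 1.19 TPM among the risers and from 1.12 to 0.0883 TPM among the fallers. A few transcripts were almost without counts in one group, as 15 had fewer than 3 estimated counts in every low-dose library and at least 10 in every high-dose library, and 14 of these were called higher. They remained rare transcripts, with 10 to 64 counts per high-dose library and mean levels of 0.191 to 1.31 TPM. The opposite pattern was found for 3 transcripts, of which 2 were called lower. Without MS-145 the patterns were found for 17 and 6 transcripts. Both patterns were picked by the counts of the libraries compared, so the calls among them are largely fixed by the choice. Over all transcripts tested, 8.38% were called higher and 11.3% lower.

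In terms of the RNA pool, the mean share of the transcripts called higher went from 2.83% of TPM at the low dose (3.21% without MS-145) to 7.72% with the high dose, and that of the transcripts called lower from 18.8% (16.3% without MS-145) to 8.56%. These shares describe values that the calls themselves used. The transcripts called higher held 3.23%, 3.31%, 3.27%, 3.03% and 1.30% of transcript TPM in the low-dose libraries MS-141 to MS-145, and 7.95%, 7.33%, 7.75%, 7.66% and 7.91% in the high-dose libraries MS-146 to MS-150. The vehicle libraries, which did not enter the calls, held 2.85% to 2.97%. The transcripts called lower held 15.5%, 15.5%, 15.8%, 18.5% and 28.6% in the low-dose libraries and 8.27%, 10.03%, 7.84%, 9.12% and 7.55% in the high-dose libraries, beside 15.8% to 18.1% with vehicle. The low-dose libraries other than MS-145 thus lay near the vehicle range on both measures, and all 5 high-dose libraries lay outside it. The gain was concentrated, as 10 transcripts made up 40.7% of the summed TPM gain of the transcripts called higher, and 1 of them, ENSRNOT00000030919, made up 15.6%. Among the calls without MS-145, 10 transcripts made up 38.4% of the gain.

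**Figure D2:**
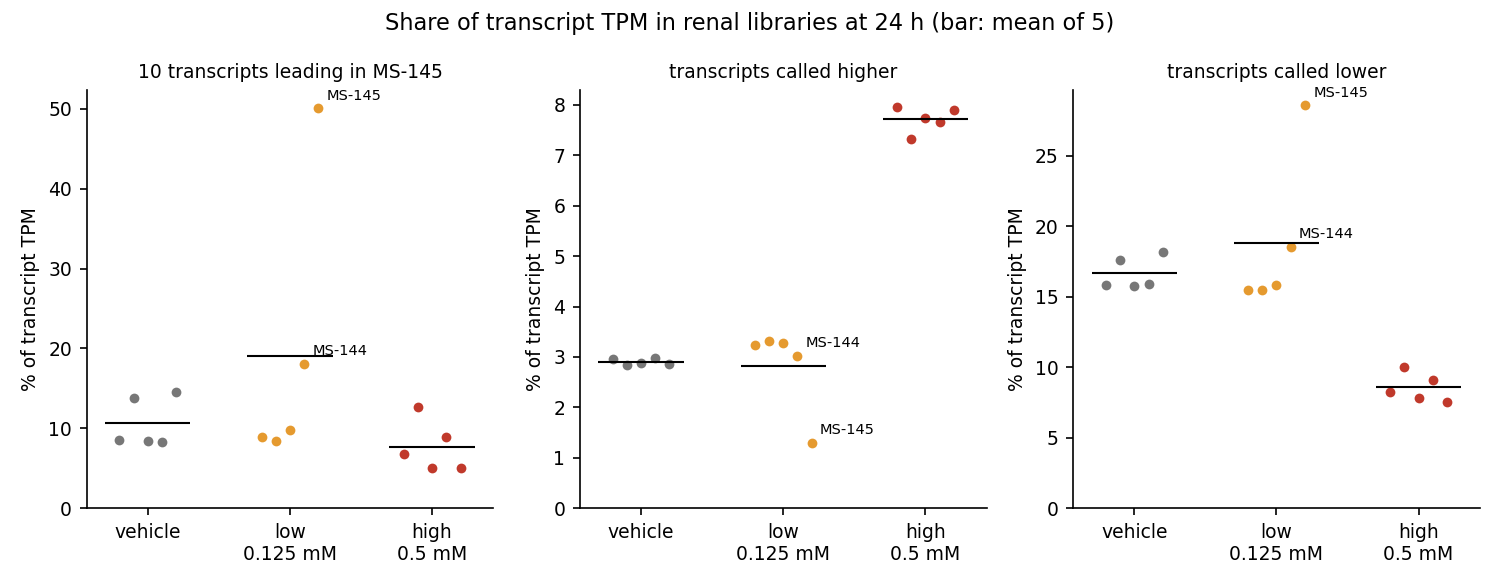
Share of transcript TPM (%) in each renal library at 24 h under vehicle, the low and the high dose, for the 10 transcripts that lead in MS-145 (left), the transcripts called higher (middle) and the transcripts called lower (right), with a point per library and a bar for the mean of 5. MS-145 is at 50.0%, 1.30% and 28.6%, and the high-dose libraries lie at 7.33% to 7.95% (middle) and 7.55% to 10.03% (right).

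Set beside the vehicle, the transcripts that separated the doses lay, in the median, near their vehicle level at the low dose. In a fit of the 3 groups at 24 h over 18405 transcripts, the median log2 difference from vehicle of the transcripts called higher was 0.03 at the low dose (interquartile range -0.14 to 0.20) and 1.01 at the high dose (0.74 to 1.61). For the transcripts called lower it was -0.04 at the low dose (-0.19 to 0.14) and -1.11 at the high dose (-1.58 to -0.79). Over all transcripts of that fit the medians were -0.00 and 0.01. These differences share their libraries with the comparison that chose the transcripts, so they describe its levels and are no separate test.

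Of the 4 transcripts named, 2 rose and 2 fell. They were taken from 1679 DEGs (742 higher, 937 lower) whose mean log2 CPM was 3 or more and whose groups did not overlap, as the largest fold change and the largest change in mean TPM in each direction. Their fold changes and non-overlap are therefore descriptions of the extremes of the list.

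ENSRNOT00000010092, a transcript of 3666 bases, had the largest fold rise of these DEGs. Its level was 10.1, 8.18, 8.34, 7.17 and 6.22 CPM in the low-dose libraries MS-141 to MS-145 and 299, 228, 294, 258 and 338 CPM in the high-dose libraries MS-146 to MS-150. Even the lowest high-dose library was far above the highest low-dose one, and MS-145 was the lowest of its group. At the low dose the mean was 8.0 ± 1.45 CPM (SD, n = 5), and at the high dose 284 ± 42.0 CPM (SD, n = 5), with a log2 fold change of 5.14 (SE 0.17, edgeR adjusted p = 6.35e-08). Leaving out each library in turn gave log2 fold changes of 5.07 to 5.23. The log2 difference from vehicle was 5.41 at the high dose and 0.27 at the low dose. With all 90 libraries scaled together, the mean level with vehicle, low and high dose was 15.2, 13.4 and 37.6 CPM at 9 h, and 6.62, 7.81 and 271 CPM at 24 h. The transcript was thus already above its low-dose level at 9 h, and it was lower in vehicle cells at 24 h than at 9 h (6.01 to 7.48 against 13.8 to 15.95 CPM). In hepatocytes its condition means were 20.8 to 41.5 CPM, leaving out the vehicle library MS-183 of 24 h, in which 8.33% of counts fell on transcripts, and in cardiomyocytes 0.556 to 2.67 CPM.

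ENSRNOT00000030919, a transcript of 830 bases, had the largest rise in mean TPM of these DEGs. Its level was 1389, 1436, 1443, 1324 and 1138 CPM in the low-dose libraries and 4685, 4294, 5012, 4527 and 4758 CPM in the high-dose libraries, in the same order. The groups were again far apart, with MS-145 lowest. The mean TPM rose from 2461 ± 827 (SD, n = 5) to 9957 ± 813 (SD, n = 5), and the log2 fold change was 1.79 (SE 0.09, edgeR adjusted p = 6.45e-07). Its estimated count was fractional in all 5 low-dose libraries, as is the case where reads are shared with other targets and divided between them. In the high-dose libraries this cannot be read, because the files give counts of this size without decimals. Its log2 difference from vehicle was 0.47 with the low dose and 2.27 with the high dose. In hepatocytes its mean level at 24 h was 7906 CPM with the low and 6663 CPM with the high dose, which was above every renal condition. In cardiomyocytes at 24 h it was 2840 ± 762 CPM (SD, n = 5) at 0.5 mM and 5683 ± 96.7 CPM (SD, n = 5) at 1.5 mM.

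ENSRNOT00000008535, a transcript of 3333 bases, had the largest fold fall of these DEGs. Its level was 63.5, 62.9, 58.0, 48.2 and 23.3 CPM in the low-dose libraries and 2.09, 1.48, 1.79, 1.89 and 1.53 CPM in the high-dose libraries. MS-145 had the lowest value of its group and still lay well above the high-dose libraries, where 36 to 70 counts per library remained. The mean was 51.2 ± 16.7 CPM (SD, n = 5) against 1.76 ± 0.252 CPM (SD, n = 5), and the log2 fold change was -4.86 (SE 0.29, edgeR adjusted p = 1.75e-06), and leaving out each library in turn gave -5.04 to -4.78. The low dose differed from vehicle by 0.01 on the log2 scale, and the high dose by -4.85. Without MS-145 the former was 0.19. With all 90 libraries scaled together, its mean in vehicle cells was 24.9 CPM at 9 h and 50.5 CPM at 24 h, and at the high dose it was 5.49 and 1.67 CPM. The level in vehicle cells was therefore higher at the later time, and that at the high dose lower. Hepatocytes, again without MS-183, held 45.9 to 271 CPM by condition and cardiomyocytes 0.0943 to 8.22 CPM.

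ENSRNOT00000043693, a transcript of 684 bases, had the largest fall in mean TPM of these DEGs, and this fall turned on MS-145. It was 1 of the 10 transcripts that led in that library. Its level was 3396, 3280, 3687, 7508 and 42955 CPM in the low-dose libraries and 1601, 3277, 1305, 2272 and 1180 CPM in the high-dose libraries. The groups did not overlap, but the low-dose library MS-142 and the high-dose library MS-147 were nearly equal, and MS-144 and MS-145 stood above the rest. The log2 fold change was -2.66 (SE 0.80, edgeR adjusted p = 0.0296) with all 10 libraries and -1.21 (adjusted p = 0.0210) without MS-145. The call was lost when MS-146, MS-148, MS-149 or MS-150 was left out (adjusted p of 0.0604 to 0.0744), and without both MS-144 and MS-145 the log2 fold change was -0.84 (adjusted p = 0.0506). Its log2 difference from vehicle was -1.05 with the high dose, and with the low dose it was 1.61 with MS-145 in the fit and 0.16 without it. With all 90 libraries scaled together, single libraries also stood high in low-dose cardiomyocytes, where the highest was 40414 CPM at 9 h (median 3291) and 49120 CPM at 24 h (median 6044). Of the 10 transcripts that led in MS-145, 4 were called lower at the high dose with this library (11.3% of all tested) and 3 without it (12.6% of all tested). The first count is partly fixed by the choice of transcripts that were high in a low-dose library.

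**Figure D3:**
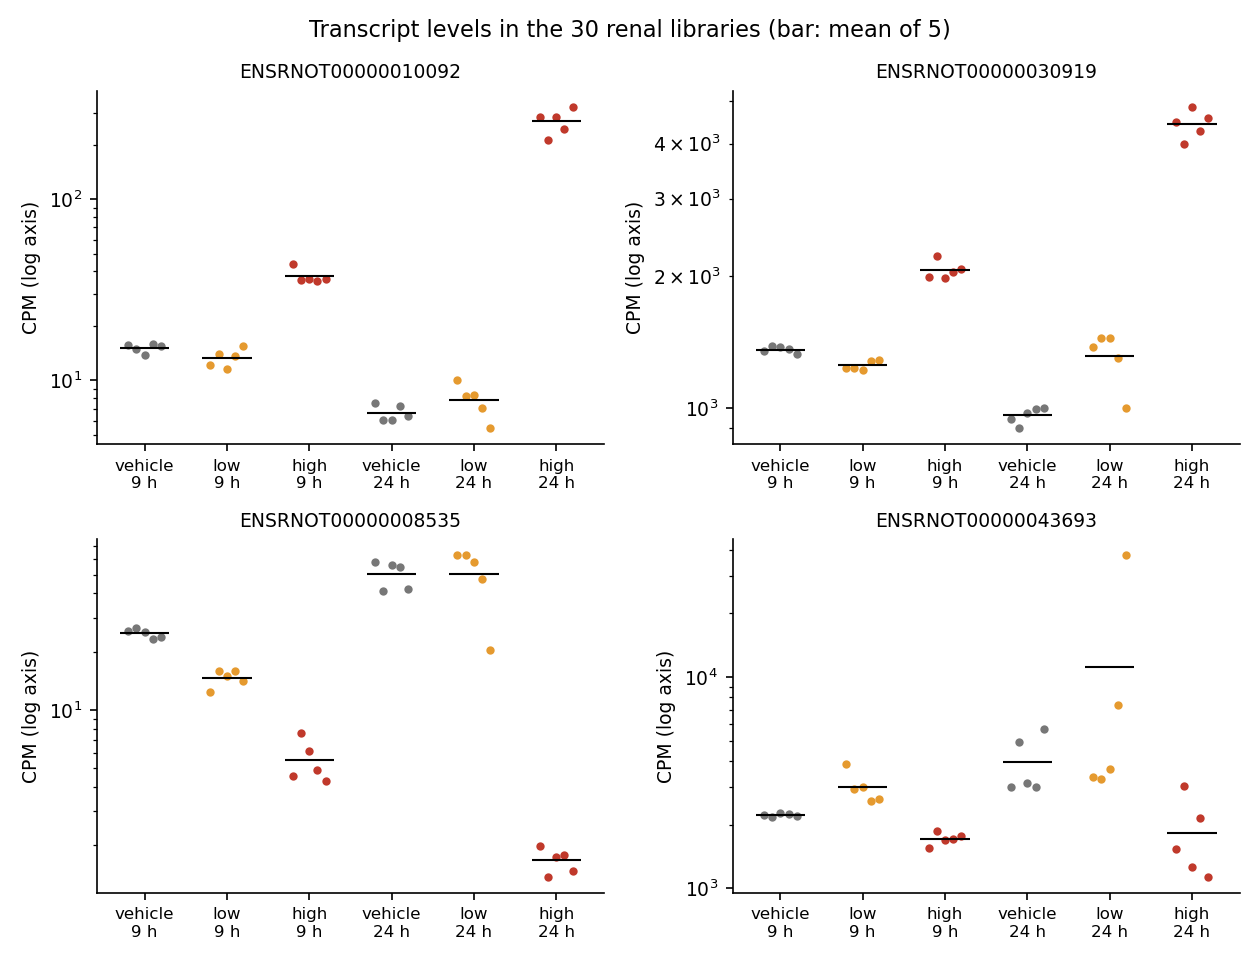
Level of the 4 named transcripts in CPM (vertical axes, log scale) in each of the 30 renal libraries, by dose and time, with a point per library and a bar for the mean of 5, all libraries of the series scaled together. The high-dose libraries at 24 h lie at 213 to 325 CPM for ENSRNOT00000010092 and 1.38 to 1.99 CPM for ENSRNOT00000008535, and MS-145 is the single point at 37672 CPM for ENSRNOT00000043693.

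The same doses at 9 h, in 10 other libraries of the same cells, gave a test that the 24 h libraries did not enter. At 9 h, 2249 of 17641 transcripts were called (12.7%), with 1099 higher (6.23%) and 1150 lower (6.52%). Of the 1504 transcripts called higher at 24 h, 1414 were tested at 9 h, and 530 of them (37.5%) were called higher there, 3 lower and 881 in neither direction. Of the 2028 called lower at 24 h, 1985 were tested at 9 h, and 683 (34.4%) were called lower, 22 higher and 1280 in neither direction. Among the calls without MS-145, 35.2% of the higher and 33.7% of the lower transcripts tested at 9 h were called in the same direction there. Seen from the earlier time, the shared calls made up 48.2% of the 9 h higher list and 59.4% of the 9 h lower list. With MS-145 in the fit, whether the later time had more calls depended on the fold threshold. With a fold change of at least 1.5 there were 3532 calls at 24 h and 2249 at 9 h, and with no fold threshold 5294 and 8011. Without MS-145, 4234 transcripts were called at 24 h with the fold threshold (23.2%, against 12.7% at 9 h). With none, 8231 of 18242 tested were called at 24 h and 8011 of 17641 at 9 h, which are near-equal shares. That 24 h run was added after the data were seen.

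Larger changes at 24 h were more often called at 9 h. Among transcripts that rose by 1.5- to 2-fold at 24 h, 20.3% of the 747 tested at 9 h were called higher there, with a median log2 fold change at 9 h of 0.34. Among those that rose by 8-fold or more, 84% of 50 were, with a median of 2.11. The falling transcripts showed a smaller range. Of those that fell by 1.5- to 2-fold, 19.9% of 878 were called lower at 9 h (median log2 fold change -0.33), and of those that fell by 8-fold or more, 62.1% of 29 were (median -0.92). The other 32 and 11 transcripts of the 8-fold classes did not pass the count filter at 9 h. Among the calls without MS-145, the shares also called at 9 h were 21.1% and 80.7% for the smallest and largest class of risers, and 20.4% and 50% for those of fallers.

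The size of the step grew with time for most transcripts whose step differed between the times. The median log2 fold change of the transcripts called higher at 24 h and tested at both times was 0.97 at 24 h and 0.49 at 9 h, and that of those called lower was -1.08 and -0.46, although selection at 24 h favours larger values there. A test of the difference itself, as an interaction over the 20 libraries, called 1470 of 18798 transcripts (7.82%), with 617 more positive at 24 h (3.28%) and 853 more negative (4.54%). Of the 1433 of these that had been tested at both times, the step was larger in size at 24 h for 1218 and at 9 h for 215. Without MS-145 the interaction called 1914 transcripts (10%), and of the 1854 tested at both times the step was larger at 24 h for 1536 and at 9 h for 318. Of the 3527 DEGs of 24 h in this fit, 1125 (31.9%) differed from 9 h, so for the others no difference between the times was shown. Without MS-145 it was 1455 of 4234 (34.4%). The DEGs were chosen in 24 h libraries that this fit also holds, which favours a difference.

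Among the transcripts that differed between the times, 332 were called higher and 495 lower at 24 h with no call at 9 h, and 130 had a call at 9 h alone. Another 255 were called in the same direction at both times. A change of direction was shown for 25 transcripts, of which 22 were higher at 9 h and lower at 24 h and 3 lower at 9 h and higher at 24 h. Of the named transcripts, ENSRNOT00000010092 had a log2 fold change of 1.52 (SE 0.09) at 9 h, and its difference between the times was 3.64 (edgeR adjusted p = 7.58e-11). ENSRNOT00000030919 had 0.75 at 9 h and a difference of 1.07 (adjusted p = 5.02e-08). ENSRNOT00000008535 had -1.38 at 9 h and a difference of -3.45 (adjusted p = 2.91e-07). For ENSRNOT00000043693, with -0.78 at 9 h, the difference of -1.85 did not pass the test (adjusted p = 0.151), and without MS-145 it was -0.43 (adjusted p = 0.469). The differences of the other 3 named transcripts were called with and without this library. As extremes of the 24 h list, the named transcripts were likely to differ in such a test.

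The transcripts that answered the step in dose at 9 h could be read in the 24 h libraries as a level that no 24 h value had chosen. The mean log2 CPM of the 1099 transcripts higher at 9 h minus that of the 1150 lower at 9 h was -1.20, -1.20, -1.17, -1.32 and -1.29 in the low-dose libraries MS-141 to MS-145. It was 0.38, 0.26, 0.44, 0.27 and 0.51 in the high-dose libraries MS-146 to MS-150, and -1.37, -1.50, -1.41, -1.40 and -1.52 in the vehicle libraries. The 3 groups did not overlap. The low-dose libraries lay just above the vehicle libraries and far below the high-dose ones, and MS-145 lay within the range of its group. In MS-145 the mean level of both lists was the lowest of its group, at 1.82 log2 CPM for the transcripts higher at 9 h (2.10 to 2.18 in the other 4) and 3.11 for those lower at 9 h (3.34 to 3.42).

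**Figure D4:**
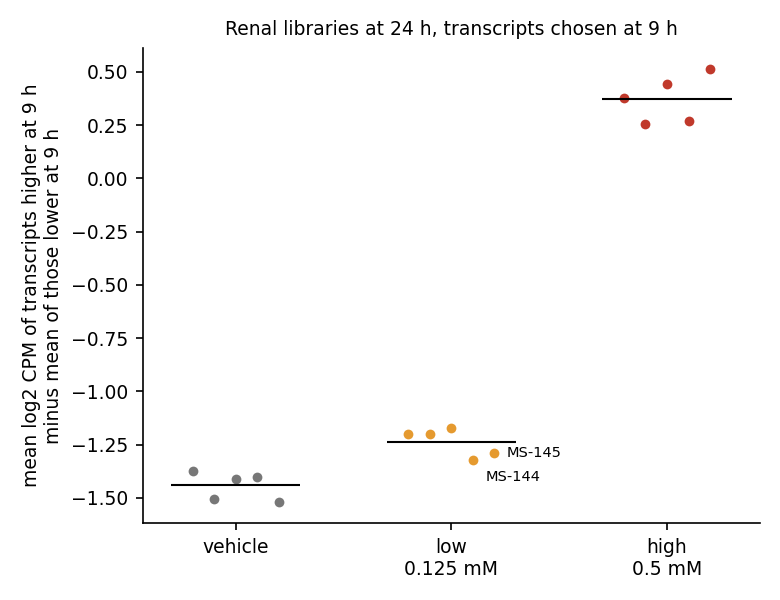
Mean log2 CPM of the 1099 transcripts higher at 9 h minus that of the 1150 lower at 9 h (vertical axis) in each renal library at 24 h, by dose, with a bar for the mean of 5. The vehicle libraries lie at -1.52 to -1.37, the low-dose libraries at -1.32 to -1.17 and the high-dose libraries at 0.26 to 0.51.

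Most of the renal DEGs were not called at the step from the low to the high dose in hepatocytes at 24 h, where the doses in mM were lower. There, 2520 of 16891 transcripts were called (14.9%), with 1111 higher (6.58%) and 1409 lower (8.34%). Of the 1265 renal transcripts called higher that were tested in hepatocytes, 12.02% were called higher and 9.57% lower. Of the 1322 called lower and tested, 18.7% were called lower and 7.64% higher. Among the renal calls without MS-145, 10.6% of the higher and 18.3% of the lower transcripts tested in hepatocytes were called in the same direction. The shared calls were 13.7% of the hepatocyte higher list and 17.5% of the lower list. The median log2 fold change in hepatocytes was 0.05 for the renal higher list and -0.14 for the renal lower list, beside 0.94 and -0.97 for the same transcripts in renal cells. Across transcripts, which are not independent replicates, Pearson's r between the log2 fold changes was 0.07 (Spearman's rho 0.10, 15400 transcripts) for hepatocytes, and 0.57 (rho 0.59, 17340 transcripts) for renal cells at 9 h. Within each pair the fold changes came from different libraries with the same annotation.

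Many of the transcripts that fell in renal cells had a low level in hepatocytes. Of the 2028 called lower, 706 (34.8%) did not pass the count filter in hepatocytes, against 239 of the 1504 called higher (15.9%) and 2541 of all 17941 tested (14.2%). For the calls without MS-145 the shares were 36.1% and 16.8%. In vehicle-treated hepatocytes at 9 h, 48.8% of the transcripts called lower in renal cells reached a mean of 1 TPM, against 69.2% of those called higher and 74.5% of all tested. In vehicle-treated renal cells at 9 h the same shares were 86.1%, 72.7% and 85.6%, and in vehicle-treated cardiomyocytes 75.05%, 67.6% and 81.4%. In vehicle-treated renal cells the falling transcripts were thus close to all transcripts tested, and in hepatocytes well below them. These shares are descriptions with no test.

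The difference between the cell types was tested as an interaction over the 20 libraries of 24 h, and it called 3851 of 19609 transcripts (19.6%). The step was more positive in renal cells for 1775 (9.05%) and more negative for 2076 (10.6%). Doses differed between the cell types, so cell type and dose cannot be told apart here. Of the 3148 of these that had been tested in each cell type alone, the step was larger in size in renal cells for 2030 and in hepatocytes for 1118, and 222 were called in opposite directions in the 2 cell types. Of the 3513 renal DEGs in this fit, 1953 (55.6%) differed from hepatocytes. Without MS-145 the interaction called 4580 transcripts (23%), among them 2377 of 4223 renal DEGs (56.3%). All 4 named transcripts were among the calls. They and the renal DEGs were chosen in renal libraries of 24 h that this fit also holds, which favours such calls. The difference was 4.56 for ENSRNOT00000010092 (edgeR adjusted p = 6.20e-12), which had a log2 fold change of 0.54 in hepatocytes. It was 1.998 for ENSRNOT00000030919, which had -0.24 in hepatocytes, and -4.38 for ENSRNOT00000008535, which had -0.54. For ENSRNOT00000043693, with 0.18 in hepatocytes, it was -2.78 (adjusted p = 0.0137) with MS-145 in the fit and -1.46 (adjusted p = 0.0108) without it.

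**Figure D5:**
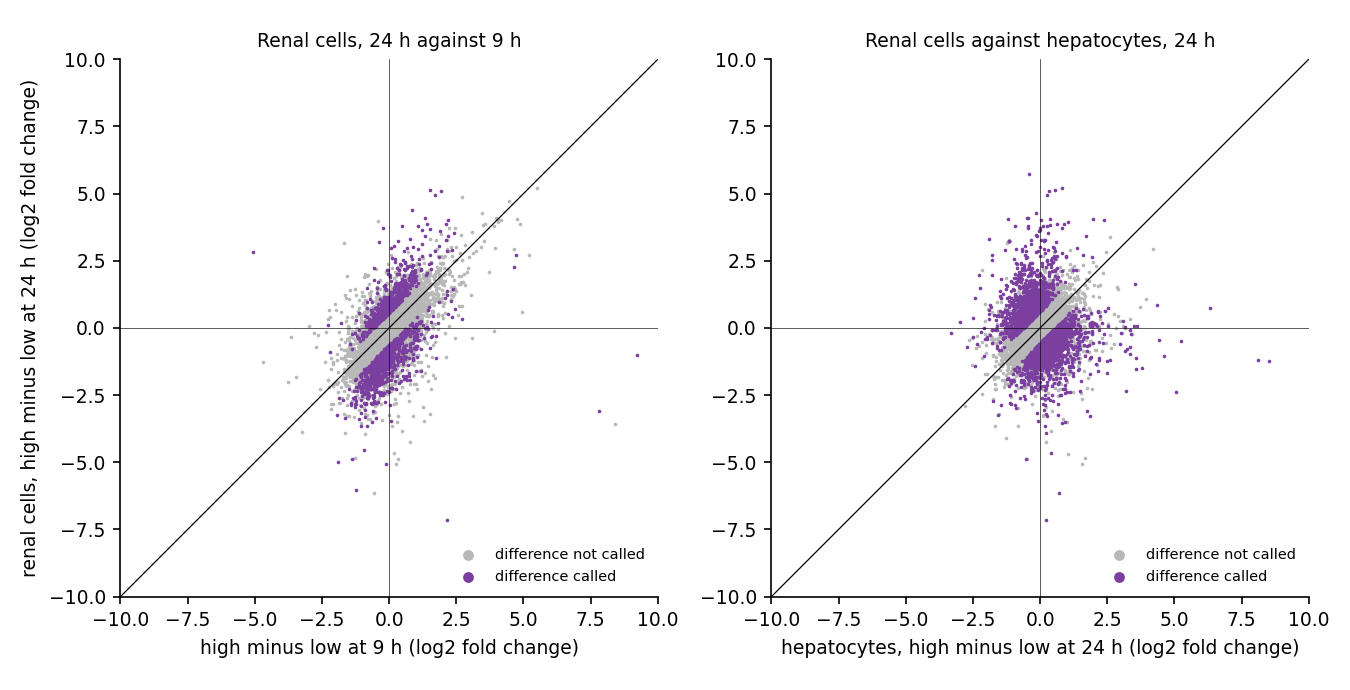
Log2 fold change between the high and the low dose in renal cells at 24 h (vertical axis) against that in renal cells at 9 h (left, 17340 transcripts) and in hepatocytes at 24 h (right, 15400 transcripts), with the diagonal of equal change. Purple points are transcripts whose difference between the axes was called by the interaction test, and Spearman's rho across transcripts was 0.59 on the left, where the median size of the change was 0.35 on the vertical and 0.23 on the horizontal axis, and 0.10 on the right.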

How the data were processed

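Per the labels and the study's methods, total RNA was made into stranded poly-A-enriched paired-end libraries, and the authors pseudo-aligned the reads to the Ensembl Rnor_6.0 transcriptome with kallisto 0.42.4. They deposited, for each library, the estimated count and the TPM of 65166 targets, of which 40071 are Ensembl transcripts (used here) and 25095 are genomic intervals of a kind not given in the sources used here. Counts of transcripts that share sequence are split by an estimate, so isoforms and paralogs are uncertain. Estimated counts were rounded and tested with edgeR 4.0.16 (R 4.3.3, filterByExpr, TMM, quasi-likelihood test), 1 fit per comparison with p-values adjusted over all transcripts tested. Calls required adjusted p ≤ 0.05 together with |ln fold change| ≥ 0.41 (1.5-fold), as in the study, which used another tool. CPM are relative to TMM-scaled library sizes. Single library measures were compared by exact permutation tests, two-sided. limma 3.58.1 and DESeq2 1.42.0 served as alternatives. The scripts were tested on simulated data with 200 planted changes, some of them 1.5-fold and so just under the exact threshold of 1.507. For the main comparison edgeR called 76 of the 200, and 73 of the 131 of 2-fold or more. For the difference between times it called 89 of 200. In each case 4 unchanged transcripts were called and 0 were called in the wrong direction. Many planted changes thus went uncalled. No 2 libraries held identical values.

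The libraries, thresholds and rules were chosen with earlier results of these data known. No gene names were assigned because 0 transcripts matched the gene table, so gene lists and cell type markers were not used. The named transcripts are, among calls with mean log2 CPM ≥ 3 and no overlap of groups, those with the largest fold change and the largest change in mean TPM in each direction.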

Additional observations from a re-analysis of the deposited data

Results flagged for a closer look

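In the low-dose group at 24 h, the library MS-145 lay far from the other 4 on 10 of the 16 sets of values checked (gap to the nearest library over 0.71 of the range, Dixon's criterion). No library of the high-dose group did on the same 16 measures. Chance gives about 1 in 20 sets, but the measures are not independent. The share of the 10 transcripts was chosen from MS-145 itself, and ENSRNOT00000043693 and the called transcripts were chosen with this library in the fit, so these sets are descriptions only. Its total was 15078809 estimated counts, and 19227 transcripts were detected in it. The 100 most abundant transcripts held 69.7% of its TPM, its 10 most abundant 50.0% and its single most abundant 10.2%. ENSRNOT00000043693 was at 42955 CPM in it. In 2 libraries of other groups, the low-dose cardiomyocyte libraries MS-158 at 9 h and MS-172 at 24 h, the 100 most abundant transcripts likewise held 68.9% and 74.2% of TPM. The transcripts called higher at the high dose held 1.30% and those called lower 28.6% of its TPM. The transcripts called higher and lower at 9 h had mean levels of 1.82 and 3.11 log2 CPM in it. What set this library apart was not tested.

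The step from low to high dose differed between 24 h and 9 h for 1470 transcripts in the interaction test, among them ENSRNOT00000010092 (difference of log2 fold changes 3.64), ENSRNOT00000030919 (1.07) and ENSRNOT00000008535 (-3.45). It differed between renal cells and hepatocytes, at unequal doses, for 3851 transcripts, among them ENSRNOT00000010092 (4.56), ENSRNOT00000030919 (1.998), ENSRNOT00000008535 (-4.38) and ENSRNOT00000043693 (-2.78, and -1.46 without MS-145). The named transcripts were chosen as extremes of the 24 h renal step, which favours such differences.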

How the results depend on the processing

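None of the 4 named log2 fold changes changed sign under any alternative run. The difference in total counts, which did not pass, went from 2604298 to -663836 (high minus low) without MS-145. For renal cells at 24 h, the 3532 calls became 1906 with a 2-fold threshold and 1819 when only transcripts with whole-number counts were tested, which are fewer transcripts (counts too large for the files to print decimals passed as whole). They became 8231 without MS-145 and with no fold threshold, an alternative added after the data were seen, as were the omission of MS-144 and MS-145 together (4633) and the share of TPM in the 100 most abundant transcripts as a covariate (4576). None of the 3532 calls changed sign under any alternative run. At 9 h, the 2249 calls became 8011 with no fold threshold, 809 with 2-fold and 1086 with whole-number counts. In hepatocytes the 2520 became 6849, 865 and 1101. For the difference between times, the 1470 became 2536, 651 and 830, and 2460 with library weights in limma. For the difference between cell types, the 3851 became 2301 with 2-fold and 1974 with whole-number counts. Of these 3851 calls, 27 changed sign with library weights, 26 with limma on log2 CPM, and 1 each without MS-145 and without the high-dose hepatocyte library MS-116.

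Leaving out each library in turn gave 3039 to 4234 calls for renal cells at 24 h, 2108 to 2371 at 9 h, 2302 to 2643 in hepatocytes, 1322 to 1914 for the difference between times and 3490 to 4580 for that between cell types. It gave a difference (high minus low) of -1.48 to -0.923 percentage points for counts on transcripts (exact permutation p of 0.0635 with all libraries, 0.0317 without MS-141 and 0.0476 without MS-147) and of -11.5 to -2.45 for the TPM share of the 100 most abundant transcripts (p of 0.0476 without MS-147). For transcripts detected the difference was 568 to 1465. The share of calls that were higher at 24 h was 42.6%, and 39.7% to 49.8% over the alternatives. At 9 h it was 48.9%, and 43.6% with intervals in the fit and 58.96% with the 2-fold threshold, so the balance at 9 h turned. For the difference between cell types it was 46.1%, and 50.5% with upper-quartile normalization. On log2(TPM + 1) the difference of ENSRNOT00000008535 was -3.40, and that of ENSRNOT00000043693 was -1.58. The call of the latter was also lost with limma on log2(CPM + 0.5) (-1.90, adjusted p = 0.0583) and kept with library weights in limma (-1.17, adjusted p = 0.00119). The cause of these shifts was not tested. No paired analysis was possible because the high- and low-dose libraries share no replicate number. Intervals for shares were not computed, and falls to very low counts are limited by depth.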
